A study of Homo sapiens with 4 samples.

Results

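The transcripts described here encode the mTOR kinase and the proteins closest to it, measured in OVSAYO cells, a human line of ovarian clear cell carcinoma (CCC). The 10 genes are MTOR, RPTOR, RICTOR, TSC1, TSC2, RHEB, DDIT4, DDIT4L, SESN1 and SESN2. They were taken by name, and every array probe whose RefSeq accession belongs to one of these symbols was kept, which gave 12 probes for 10 of the 17721 genes that have a named probe. RICTOR and SESN1 have 2 probes each and the other 8 genes have 1. All 12 probes were well above background on all 4 arrays, and none of their spots was saturated or an outlier on any of them.

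There were 4 conditions with 1 single-colour array each. Cells given a scramble siRNA (the Silencer negative control, NS-si) or an siRNA pool against Sp1 (Sp1-si) by lipofection in RPMI1640 were kept for 40 h per the labels, for a shorter time per the study's text. After a change of medium, cells of each kind were left untreated or were exposed to 0.5 mM CoCl2 for 4 h, which gave NS-si → CoCl2 and Sp1-si → CoCl2 cells. All 4 conditions thus share the cell line and a transfection, and no condition was free of siRNA. The model is limited to this line, to 1 siRNA pool and to CoCl2, which mimics hypoxia by stabilising hypoxia-inducible factors (HIFs) while oxygen stays normal. The question behind the design was which CoCl2 responses depend on the transcription factor Sp1. The 10 genes bear on the study because it also examined mTOR, under hypoxia and serum starvation. It did so by mTOR phosphorylation, rapamycin and mTOR silencing, and not in the 4 conditions here. With 1 array per condition, no ratio below has a replicate check, no test was run, and no p-value is given.

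In brief, DDIT4 was higher with CoCl2 in both kinds of cells, DDIT4L and SESN1 were higher after Sp1-si than after NS-si with and without CoCl2, and SESN2 was lower with CoCl2 in both. Of the other genes, TSC1 and RHEB were higher with CoCl2 in both kinds of cells, and the RICTOR probes differed from each other in their CoCl2 ratios. MTOR, RPTOR and TSC2 differed by less than 1.5-fold in every pair of arrays compared at the scaling used.

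mTOR is a kinase that couples growth to nutrients, growth factors and oxygen. It works in mTORC1, which contains Raptor and promotes protein synthesis, and in mTORC2, which contains Rictor and phosphorylates AKT. At the lysosome the small GTPase Rheb activates mTORC1, and the TSC complex turns Rheb off. DDIT4 (REDD1) is a textbook hypoxia and stress gene whose product restrains mTORC1 through the TSC complex, DDIT4L (REDD2) is its relative, and the sestrins, known as stress and p53 target genes, restrain mTORC1 through the amino acid sensing arm. All values here are transcript signals, and none of them measures the activity of mTOR.

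The stretches upstream of these genes are shown because the manipulated factors have known recognition letters. Sp1 binds the GC box (GGGCGG), and HIFs bind hypoxia response elements, whose cores are ACGTG and GCGTG. The 250 bases before each start site come from RefSeq sequences of the GRCh38.p14 build and were searched on both strands for these letters. DDIT4 (chr10:72273674-72273923, plus strand) holds 1 ACGTG and 2 GCGTG and no GC box. DDIT4L (chr4:100190469-100190718, minus strand) holds 3 GC boxes, the most upstream of 3 SESN1 start sites (chr6:109094847-109095096, minus strand) holds 7, and SESN2 (chr1:28259268-28259517, plus strand) holds 2, and none of these windows holds either core. Of the SESN1 windows not printed, chr6:109009553-109009802 holds 5 GC boxes and 1 GCGTG, and chr6:109008989-109009238 holds 1 GC box and neither core. The sequences run 5′ to 3′ toward the start site, and capitals mark the HIF cores in DDIT4 and the GC boxes, on either strand, in the other sequences.
DDIT4: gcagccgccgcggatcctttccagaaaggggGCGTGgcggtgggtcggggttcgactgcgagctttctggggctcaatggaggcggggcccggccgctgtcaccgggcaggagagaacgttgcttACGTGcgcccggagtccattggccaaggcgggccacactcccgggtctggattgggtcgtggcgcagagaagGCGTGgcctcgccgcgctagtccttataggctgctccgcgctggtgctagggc
DDIT4L: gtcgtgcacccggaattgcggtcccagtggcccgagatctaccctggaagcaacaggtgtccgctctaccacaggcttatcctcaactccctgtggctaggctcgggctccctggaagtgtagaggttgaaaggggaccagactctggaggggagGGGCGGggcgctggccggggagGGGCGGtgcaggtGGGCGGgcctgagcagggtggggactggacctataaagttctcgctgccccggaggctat
SESN1: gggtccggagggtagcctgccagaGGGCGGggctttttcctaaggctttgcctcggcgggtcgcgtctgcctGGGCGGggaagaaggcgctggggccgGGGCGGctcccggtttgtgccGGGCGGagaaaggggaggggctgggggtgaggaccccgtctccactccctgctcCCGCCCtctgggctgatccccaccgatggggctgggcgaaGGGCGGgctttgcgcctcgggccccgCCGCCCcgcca
SESN2: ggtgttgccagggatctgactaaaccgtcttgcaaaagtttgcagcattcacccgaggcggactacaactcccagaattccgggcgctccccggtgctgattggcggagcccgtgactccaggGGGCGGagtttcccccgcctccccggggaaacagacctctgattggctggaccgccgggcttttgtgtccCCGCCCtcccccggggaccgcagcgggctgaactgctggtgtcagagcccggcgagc

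Over the 13 listed start sites of the 10 genes, 11 windows held GGGCGG, against 42.6% of 35116 promoters of the same length. The windows of DDIT4 and RPTOR did not hold it. Counted by gene, this was 8 of 10, since SESN1 and TSC2 have more than 1 start site. The windows were 47.2% (RPTOR) to 77.2% (TSC2) G and C, and the shares of all promoters were not matched for this. ACGTG stood in 4 of the 13 windows against 18.5% of all promoters, GCGTG in 5 against 32.2%, and either core in 7 against 43.2%. In RICTOR a GCGTG runs into a GC box. In TSC2 the ACGTG lies within the palindrome CACGTG and is counted on both strands, and the windows of the 2 TSC2 start sites overlap. A match describes the letters only and is not evidence of binding in these cells.

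Between 75.6% and 79.1% of the 41000 probes were well above background on each array, and 30234 were so on all 4. The arrays lay on 1 slide and the scanner software left them unscaled to each other, so the log2 signals of each array were set relative to its 75th percentile, which lay between 977 and 1285. A scaled signal below is the processed signal after every array was brought to a common 75th percentile of 1120.5, in arbitrary units, so ratios of scaled signals are the ratios reported. Leaving out this step adds the same amount to every probe, -0.23 to the CoCl2 ratio (log2) in NS-si cells, 0.22 to that in Sp1-si cells, -0.05 to the Sp1-si/NS-si ratio without CoCl2 and 0.40 to the same ratio with CoCl2. Each of the 12 probes has 1 spot, so the error given after ± is the median SD of the log2 ratio between spots over the 53 probes with 10 spots that are nearest in signal, and it does not cover differences between cultures. The targeted SP1 transcript was lower in Sp1-si cells, with log2 ratios of -3.77 ± 0.11 without and -3.87 ± 0.099 with CoCl2 for the probe with 10 spots. The CCC and epithelial markers NAPSA, PAX8, ANXA4, KRT7 and EPCAM were well above background on all arrays. NAPSA, a CCC marker, stood at -2.33 without and -2.39 with CoCl2 in Sp1-si against NS-si cells, and its part in the results was not tested. Of the markers of other cells, PTPRC, PECAM1 and WT1 were well above background on none of the arrays, ACTA2 and ESR1 each had a probe that was on all 4, and COL1A1 has no named probe here. The ACTA2 probe stood at -1.19 without and -1.05 with CoCl2 for Sp1-si over NS-si, and its part was not tested either.

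MTOR, which encodes the kinase itself, differed by at most 1.31-fold in the 4 ratios. It had scaled signals of 1633 for NS-si, 1651 for Sp1-si, 1727 for NS-si → CoCl2 and 1314 for Sp1-si → CoCl2. The Sp1-si → CoCl2 array was the low one and the other 3 lay close together. The log2 CoCl2 ratio was 0.08 ± 0.033 after NS-si and -0.33 ± 0.032 after Sp1-si, and without scaling the first of these became -0.14 and the second -0.10. The Sp1-si/NS-si ratio was 0.02 ± 0.029 without CoCl2 and -0.39 ± 0.033 with it, and the latter was 0.00 without scaling. The place of the Sp1-si → CoCl2 array below the others thus depends on the arrays being scaled at all. Under the other scalings tried, the Sp1-si/NS-si ratio with CoCl2 stayed below 0, between -0.38 and -0.28.

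RPTOR, which encodes the Raptor scaffold of mTORC1, was higher after Sp1-si than after NS-si. Its scaled signals were 4522 for NS-si, 5595 for Sp1-si, 4179 for NS-si → CoCl2 and 5856 for Sp1-si → CoCl2. Both Sp1-si arrays lay above both NS-si arrays. The Sp1-si/NS-si ratio was 0.31 ± 0.027 without and 0.49 ± 0.029 with CoCl2 on the log2 scale, or 1.24-fold and 1.40-fold. The CoCl2 ratio was -0.11 ± 0.029 after NS-si and 0.07 ± 0.028 after Sp1-si.

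RICTOR encodes the subunit that defines mTORC2, and its 2 probes differed in the size of the CoCl2 ratio. The probe with the higher mean signal (A_32_P193322) had scaled signals of 1773 for NS-si, 2036 for Sp1-si, 2878 for NS-si → CoCl2 and 2356 for Sp1-si → CoCl2. The other probe (A_32_P15017) read 107 for NS-si, 109.8 for Sp1-si, 121 for NS-si → CoCl2 and 86.7 for Sp1-si → CoCl2. Both probes were highest on the NS-si → CoCl2 array. The log2 CoCl2 ratio in NS-si cells was 0.70 ± 0.031 at the first probe, 1.62-fold, and 0.18 ± 0.074 at the second, a gap of 0.52. In Sp1-si cells the first probe gave 0.21 ± 0.030 and the second -0.34 ± 0.075, so that the mean over both probes was -0.06 and had the opposite sign to the first probe. The difference between the CoCl2 ratios, Sp1-si minus NS-si, was close at both, -0.49 ± 0.043 and -0.52 ± 0.11, and shrank to -0.04 and -0.07 without scaling. Sp1-si over NS-si gave 0.20 ± 0.029 and 0.03 ± 0.071 without CoCl2, and -0.29 ± 0.032 and -0.49 ± 0.086 with it. Without scaling the first probe turned to 0.11 with CoCl2 in this ratio, while the second stayed below 0 at -0.09.

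**Figure D1:**
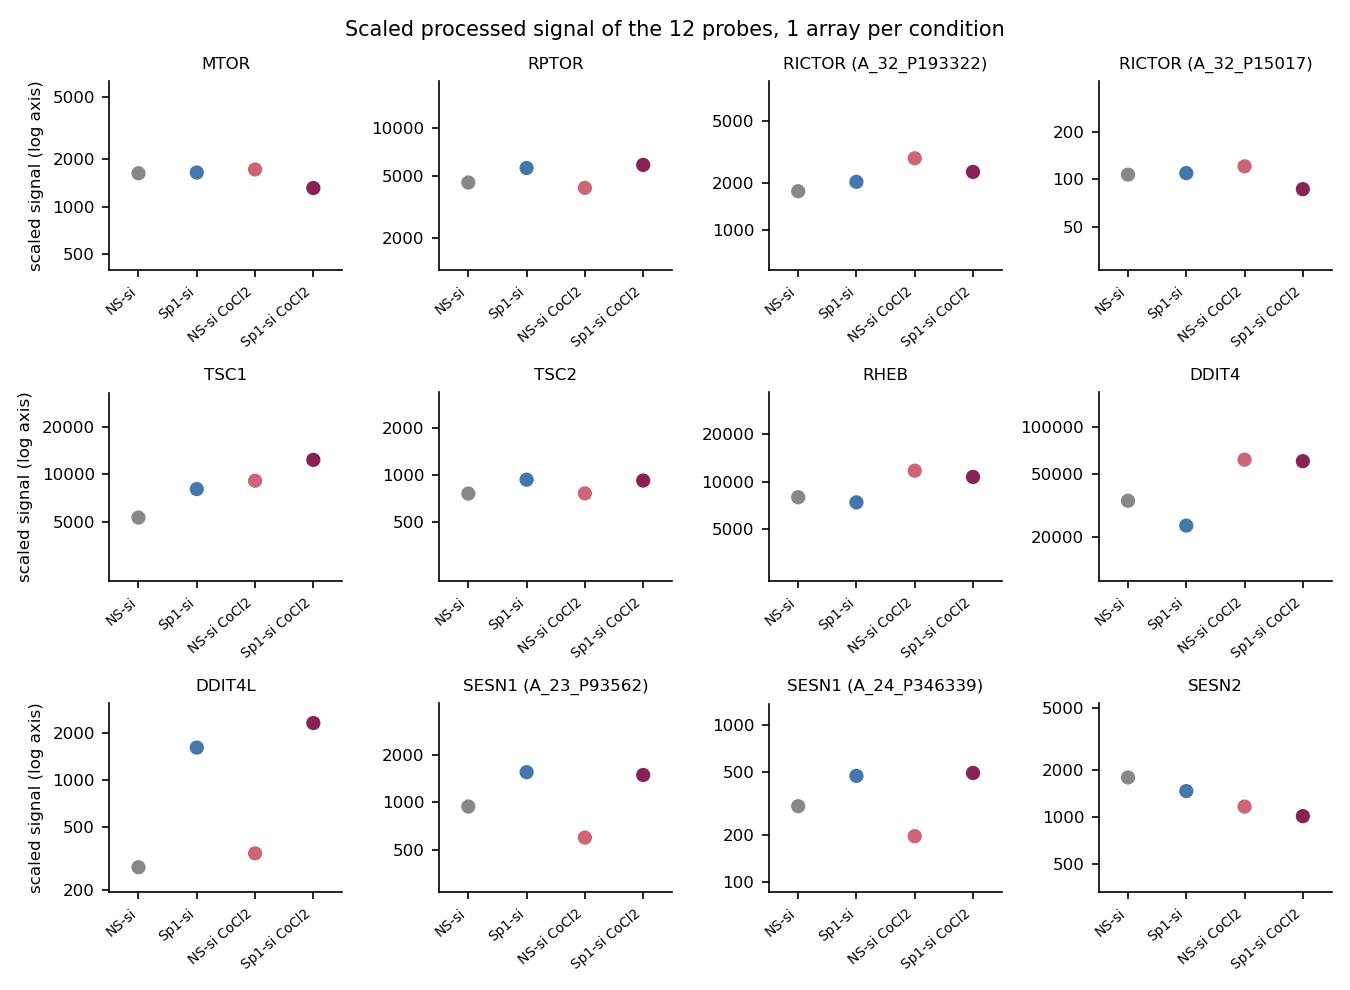
Scaled processed signal (arbitrary units, logarithmic axis spanning 16-fold in every panel) of the 12 probes of the 10 genes on the 4 arrays, 1 point per condition and no error bars, since each probe has 1 spot. DDIT4 is higher on both CoCl2 arrays, DDIT4L and both SESN1 probes are higher on both Sp1-si arrays, and SESN2 is highest on the NS-si array.

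TSC1 encodes hamartin, the partner that stabilises TSC2 in the TSC complex, and it was higher both with CoCl2 and with Sp1-si. Its scaled signals were 5305 for NS-si, 8058 for Sp1-si, 9110.3 for NS-si → CoCl2 and 12386 for Sp1-si → CoCl2. NS-si was the lowest array and Sp1-si → CoCl2 the highest. The log2 CoCl2 ratio was 0.78 ± 0.028 after NS-si and 0.62 ± 0.027 after Sp1-si, 1.72-fold and 1.54-fold. The Sp1-si/NS-si ratio was 0.60 ± 0.025 without and 0.44 ± 0.027 with CoCl2. The smaller CoCl2 ratio in Sp1-si cells, by -0.16 ± 0.037, turned to 0.29 without scaling, whereas the other TSC1 ratios kept their sign under every alternative tried.

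TSC2 encodes tuberin, the GTPase activating protein that acts on Rheb, and it did not follow its partner with CoCl2. It read 764 for NS-si, 937 for Sp1-si, 766 for NS-si → CoCl2 and 926 for Sp1-si → CoCl2. The pair of arrays within each kind of cell lay within the SD between spots, with log2 CoCl2 ratios of 0.00 ± 0.039 and -0.02 ± 0.034, and both Sp1-si arrays lay above both NS-si arrays. The Sp1-si/NS-si ratio was 0.29 ± 0.033 without and 0.27 ± 0.035 with CoCl2. Without scaling the CoCl2 ratios were -0.22 after NS-si and 0.21 after Sp1-si.

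RHEB, the GTPase that activates mTORC1, was higher with CoCl2 to a like extent in both kinds of cells. Its scaled signals were 7946 for NS-si, 7372 for Sp1-si, 11743 for NS-si → CoCl2 and 10711 for Sp1-si → CoCl2. Both CoCl2 arrays lay above both untreated arrays. The log2 CoCl2 ratio was 0.56 ± 0.029 after NS-si and 0.54 ± 0.027 after Sp1-si, 1.48-fold and 1.45-fold, and their difference of -0.02 ± 0.037 lay within the SD between spots. The Sp1-si/NS-si ratio was -0.11 ± 0.027 without and -0.13 ± 0.025 with CoCl2, and the latter was 0.26 without scaling.

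DDIT4, whose product restrains mTORC1 under hypoxia and stress, had the highest CoCl2 ratio of the 10 genes in both kinds of cells. Its scaled signals were 33857 for NS-si, 23494 for Sp1-si, 61936 for NS-si → CoCl2 and 60592 for Sp1-si → CoCl2. Both CoCl2 arrays lay above both untreated arrays, and the Sp1-si array was the lowest. The log2 CoCl2 ratio was 0.87 ± 0.029 after NS-si and 1.37 ± 0.026 after Sp1-si, 1.83-fold and 2.58-fold. The difference of these ratios was 0.50 ± 0.032, and it lay in the untreated arrays, where Sp1-si cells were 1.44-fold lower (log2 ratio -0.53 ± 0.023). With CoCl2 the Sp1-si/NS-si ratio was -0.03 ± 0.023, a value that was 0.36 without scaling and positive under 4 of the 10 alternatives. The threshold, the filter per pair and the mean over probes are among the 10 and could not change it. The CoCl2 ratio of DDIT4 stayed between 0.65 and 0.88 in NS-si cells and between 1.31 and 1.59 in Sp1-si cells under all 10 alternatives. At the scaling used, the central 95% of all 30234 probes reached up to 1.21 after NS-si and 1.14 after Sp1-si. DDIT4 lay inside that range after NS-si and outside it after Sp1-si. Its window shown above holds HIF cores and no GC box, and whether either factor bound there was not measured.

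DDIT4L, the relative of DDIT4, had the largest Sp1-si/NS-si ratio of the 10 genes with and without CoCl2. It read 278 for NS-si, 1614 for Sp1-si, 341 for NS-si → CoCl2 and 2317 for Sp1-si → CoCl2. Both Sp1-si arrays lay far above both NS-si arrays. The log2 Sp1-si/NS-si ratio was 2.54 ± 0.036 without and 2.76 ± 0.036 with CoCl2, 5.81-fold and 6.79-fold. Both lay outside the range that holds the central 95% of all 30234 probes, which reached up to 1.33 without and 1.43 with CoCl2. The CoCl2 ratio of DDIT4L was 0.29 ± 0.039 after NS-si and 0.52 ± 0.035 after Sp1-si, so that the relatives differed in order: DDIT4 stood higher for CoCl2 and DDIT4L for Sp1-si. The window of DDIT4L shown above holds 3 GC boxes, and binding there was not measured. These values come from 1 probe and 1 siRNA pool.

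SESN1, a sestrin known as a p53 target, was higher after Sp1-si than after NS-si and, in NS-si cells, lower with CoCl2. The probe with the higher mean signal (A_23_P93562) had scaled signals of 942 for NS-si, 1560.2 for Sp1-si, 597 for NS-si → CoCl2 and 1497 for Sp1-si → CoCl2. The other probe (A_24_P346339) read 304 for NS-si, 474 for Sp1-si, 195 for NS-si → CoCl2 and 495 for Sp1-si → CoCl2. At both probes the NS-si → CoCl2 array was the lowest and both Sp1-si arrays lay above both NS-si arrays. The log2 Sp1-si/NS-si ratio was 0.73 ± 0.031 and 0.64 ± 0.051 without CoCl2, and 1.33 ± 0.035 and 1.34 ± 0.045 with it, the latter 2.51-fold and 2.53-fold. All these ratios lay inside the central 95% of all 30234 probes, which reached up to 1.33 without and 1.43 with CoCl2. The CoCl2 ratio in NS-si cells was -0.66 ± 0.037 and -0.64 ± 0.048, 1.58-fold and 1.55-fold lower. In Sp1-si cells it was -0.06 ± 0.032 and 0.06 ± 0.050, which became 0.16 and 0.29 without scaling. The difference of the CoCl2 ratios, Sp1-si minus NS-si, was 0.60 ± 0.047 and 0.70 ± 0.071, which lay past a log2 difference of 1 without scaling, at 1.05 and 1.15. The 2 probes thus gave nearly the same ratios, with gaps from 0.01 to 0.12 over the 5 comparisons.

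SESN2, a sestrin known as a leucine sensor and as a target of the stress factor ATF4, was lower with CoCl2 in both kinds of cells. Its scaled signals were 1793 for NS-si, 1467 for Sp1-si, 1167 for NS-si → CoCl2 and 1014 for Sp1-si → CoCl2. Both CoCl2 arrays lay below both untreated arrays. The log2 CoCl2 ratio was -0.62 ± 0.038 after NS-si and -0.53 ± 0.032 after Sp1-si, 1.54-fold and 1.45-fold lower, and it kept its sign under every alternative tried. The Sp1-si/NS-si ratio was -0.29 ± 0.031 without and -0.20 ± 0.034 with CoCl2, the latter turning to 0.19 without scaling. The sestrins thus shared a lower signal with CoCl2 in NS-si cells and stood on opposite sides of 0 in Sp1-si against NS-si cells without CoCl2.

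**Figure D2:**
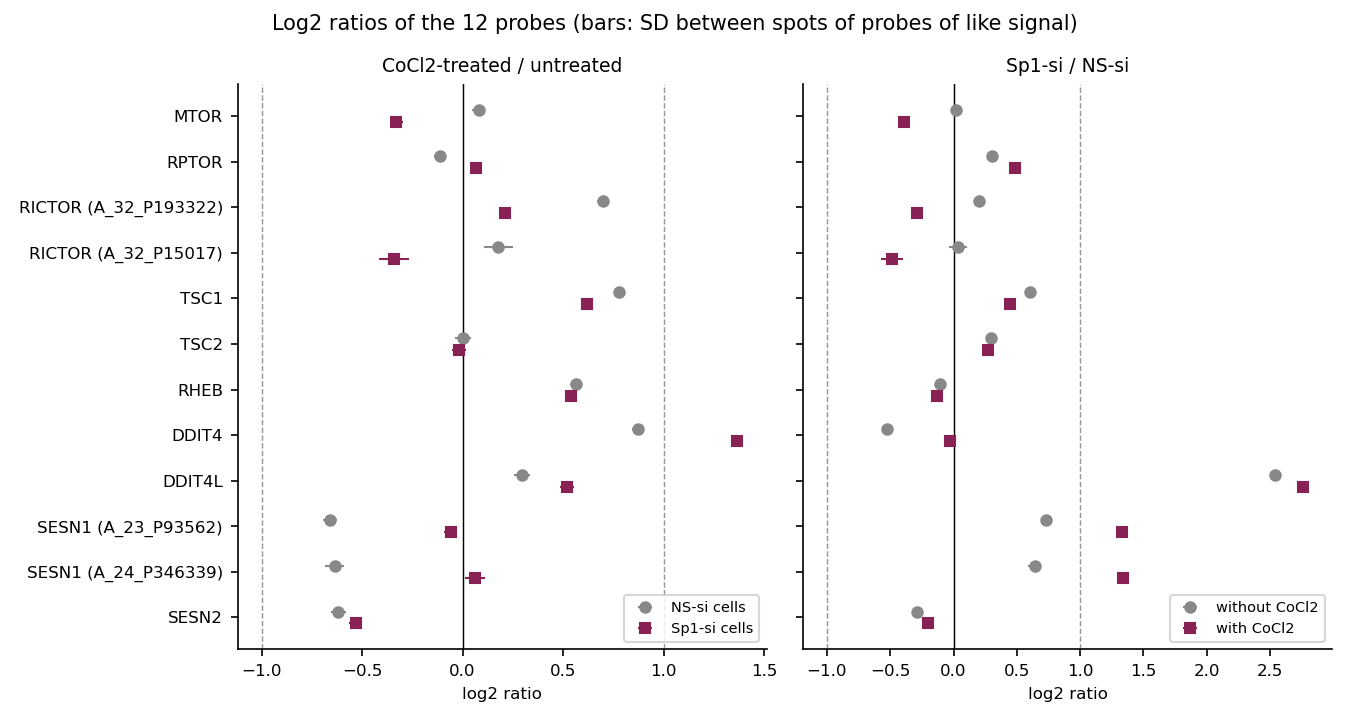
Log2 ratios of the 12 probes, CoCl2-treated over untreated cells on the left (grey, NS-si; purple, Sp1-si) and Sp1-si over NS-si cells on the right (grey, without CoCl2; purple, with CoCl2). Bars are the SD between spots of probes of like signal, many of them smaller than the symbols, and dashed lines mark a log2 ratio of 1 in size, which DDIT4 passes on the left and DDIT4L and SESN1 on the right.

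A probe was counted as called at a log2 ratio of at least 1 in size, a 2-fold difference, with each gene counted by its probe of highest mean signal. CoCl2 in NS-si cells called 0 of the 10 genes, beside 4% of the 30234 probes called higher and 3.66% called lower. The median of the 10 genes was 0.19 and 7 of them lay above 0, against a median of 0.02 over all probes. In Sp1-si cells CoCl2 called DDIT4 alone, 1 of 10, beside 3.37% of probes higher and 5.7% lower, with a median of 0.14 for the 10 genes and -0.02 over all probes. These shares leave under 1 call of 10 genes for the background in each direction, so a count of 0 or 1 does not set the genes apart.

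Sp1-si without CoCl2 called DDIT4L alone, beside 4.99% of probes higher and 5.11% lower. Sp1-si with CoCl2 called DDIT4L and SESN1, 2 of 10 higher, beside 6.01% of probes higher and 9.16% lower. The median of the 10 genes was 0.25 without and 0.12 with CoCl2, against -0.01 and -0.06 over all probes. No member gene was called lower in any of these ratios. The difference between the CoCl2 ratios, which is the dependence on Sp1 that the design addresses, called 0 of 10, beside 1.05% of probes higher and 4.87% lower. The central 95% of all probes ran from -1.23 to 0.77 in this difference, and the 10 genes lay between -0.49 for RICTOR and 0.60 for SESN1. The 4 ratios share arrays in pairs, so they are not independent of each other.

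**Figure D3:**
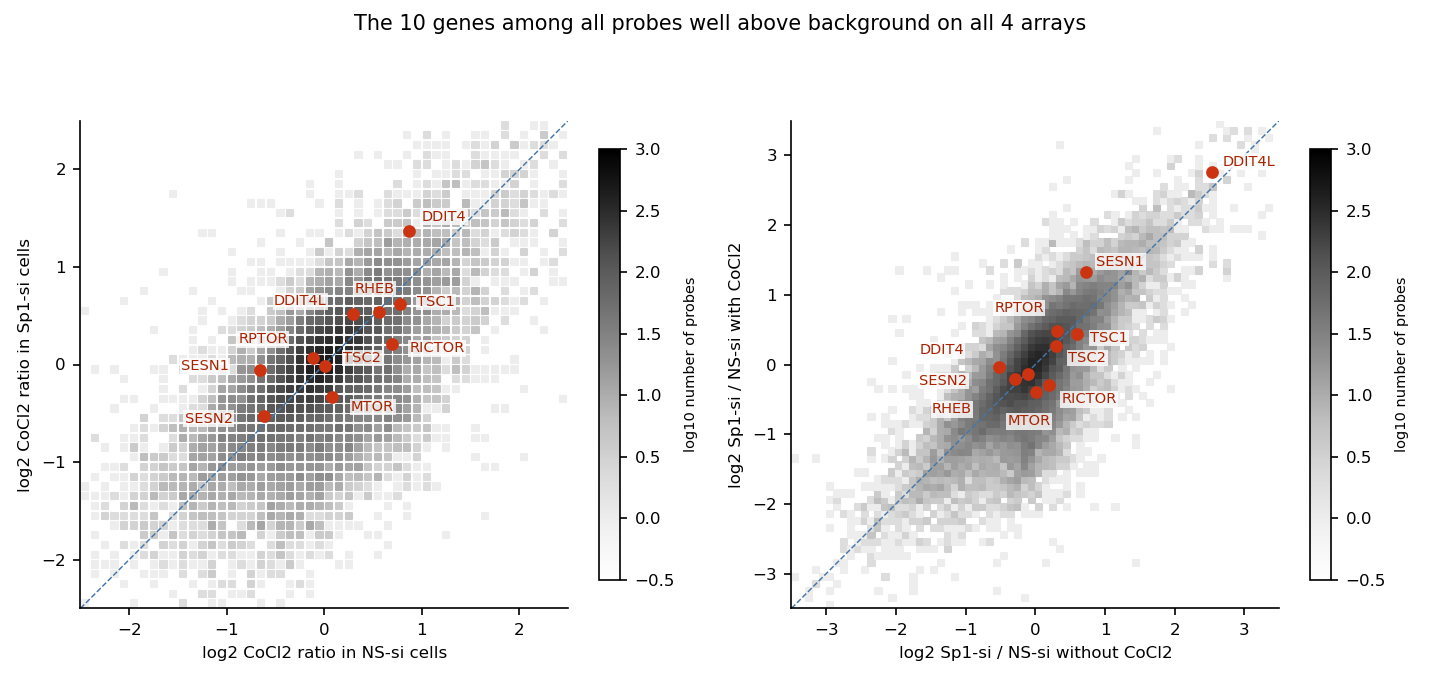
The 10 genes (red, 1 probe each) over the density of all 30234 probes well above background on all 4 arrays (grey, log10 number of probes per square, probes beyond the axes not drawn), as log2 CoCl2 ratios in Sp1-si against NS-si cells on the left and log2 Sp1-si/NS-si ratios with against without CoCl2 on the right. The dashed line marks equal ratios, and DDIT4L lies at the edge of the cloud on the right while the other genes lie inside it.

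The genes nearest to the 2 best known stress genes of the group were looked up by the distance between their 3 log2 ratios to NS-si, over 20926 named probes. Nearest to DDIT4 were GGA2 at a distance of 0.12, FGFR3 at 0.12, ERI1 and SOS1 at 0.18 each and PIGA at 0.18. Nearest to SESN2 were PEX11G at 0.018, SLC24A3 at 0.030, ZCCHC9 at 0.045, GIT2 at 0.079 and LIG4 at 0.087. None of the named neighbours of either gene is among the 10. A distance over 3 ratios from 4 arrays places many probes close together, and it is given as a description.

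Other genes of the pathway were taken in lists that are not part of the 10. Calls in these lists stand beside shares of 3.37% to 9.16% of all probes called per direction in the 4 ratios. Of 9 other subunits and assembly factors of the mTOR complexes, 9 were well above background on all arrays, and 6 stayed short of a call in all 4 ratios. DEPTOR, an inhibitory subunit, read 1408 for NS-si, 593 for Sp1-si, 1042 for NS-si → CoCl2 and 486 for Sp1-si → CoCl2. Its Sp1-si/NS-si ratio was -1.25 without and -1.10 with CoCl2. TTI1, an assembly factor, was called by CoCl2 at 1.82 after NS-si and 2.36 after Sp1-si, but its other probe read -0.52 and -0.27. PRR5, a subunit of mTORC2, stood at -1.26 in Sp1-si → CoCl2 against NS-si → CoCl2 cells, and its other probe at -0.13.

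Of the relatives of the TSC complex, RHEB and the sestrins, SESN3 was well above background on none of the arrays. RHEBL1, a relative of RHEB, had CoCl2 ratios of 1.12 after NS-si and 1.33 after Sp1-si. TBC1D7, the third subunit of the TSC complex, read 916 for NS-si, 1273 for Sp1-si, 410.3 for NS-si → CoCl2 and 944 for Sp1-si → CoCl2. Like both SESN1 probes it was lowest on the NS-si → CoCl2 array, with a CoCl2 ratio of -1.16 after NS-si and -0.43 after Sp1-si, and an Sp1-si/NS-si ratio of 1.20 with CoCl2.

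Of 28 genes of amino acid sensing at the lysosome, 25 had a probe and all 25 were well above background on all arrays. CoCl2 called 1 of them higher and 0 lower in each kind of cell, in both cases SAMTOR, an S-adenosylmethionine sensor, at 1.25 and 1.42. Its other probe gave 1.26 and 1.77. Sp1-si called FNIP2 lower at -1.18 without CoCl2, and with CoCl2 it called LAMTOR1, a lysosomal anchor of mTORC1, at 1.52 and DEPDC5, a subunit of the inhibitory GATOR1 complex, at 1.28. The list medians lay between -0.12 and 0.16 over the 4 ratios.

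Upstream, 8 of 10 genes of AMPK and LKB1 were measured on all arrays, and 1 was called, PRKAA2, a catalytic subunit of AMPK, at 1.54 in Sp1-si against NS-si cells without and 1.34 with CoCl2. Its other probes gave 1.32 and 1.13 without CoCl2, and 0.57 and 0.96 with it. Of 12 genes of the PI3K and AKT arm, IRS2, an insulin receptor substrate, was called by CoCl2 at 2.19 after NS-si and 1.47 after Sp1-si, whereas its other probes gave 1.32 and 0.84 after NS-si, and 0.70 and -0.07 after Sp1-si. PDPK1 was called at 1.02 for Sp1-si over NS-si without CoCl2, and the other PDPK1 probes gave 1.0 and 1.13. INSR was called in Sp1-si cells at 1.15 by CoCl2 and at 1.05 against NS-si → CoCl2 cells, at a scaled signal of 14.5 to 42.0. The SD between spots of probes of like signal was 0.16 and 0.17 for these INSR ratios.

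Of 19 substrates and effectors of mTOR, ULK1, the kinase that starts autophagy and is held off by mTORC1, was called on the most ratios. It read 4657 for NS-si, 17486 for Sp1-si, 12742 for NS-si → CoCl2 and 22440.1 for Sp1-si → CoCl2. NS-si was the lowest array, as for TSC1, DDIT4L, the RICTOR probe A_32_P193322 and, by less than the SD between spots, TSC2. The CoCl2 ratio of ULK1 was 1.45 after NS-si and 0.36 after Sp1-si, and its Sp1-si/NS-si ratio was 1.91 without and 0.82 with CoCl2. The other ULK1 probe gave 1.36, 0.55, 1.85 and 1.04 for these ratios in the same order. EIF4EBP1, the translation repressor that mTORC1 inactivates, stood at -1.17 in Sp1-si against NS-si cells without CoCl2 and at -0.41 with it.

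Lists of the factors known to act on DDIT4 and the sestrins were set beside them. Over all probes, CoCl2 called 4% higher and 3.66% lower after NS-si, and 3.37% higher and 5.7% lower after Sp1-si. Sp1-si without CoCl2 called 4.99% higher and 5.11% lower. Of 9 measured HIF target genes, 9 were called higher by CoCl2 after NS-si and 8 after Sp1-si, with medians of 2.15 and 2.71. DDIT4, at 0.87 and 1.37, lay below those medians in both. The difference of the CoCl2 ratios, Sp1-si minus NS-si, was above 0 for 8 of the 9, with SLC2A1 lowest at -0.91. Its median over the HIF list was 0.53, beside 0.50 for DDIT4. Without CoCl2, Sp1-si called 2 of the HIF targets lower, VEGFA at -1.81 and ADM at -1.45, and 0 higher. The list median there was -0.20, beside -0.53 for DDIT4. Of 11 genes of the ATF4 list, CoCl2 called 3 higher and 0 lower in NS-si cells, ATF3 at 2.68, TRIB3 at 1.83 and CEBPB at 1.51, with a list median of 0.45, while SESN2 was at -0.62. Their other probes gave 2.75 for ATF3, 2.24 for TRIB3 and 1.08 for CEBPB. Sp1-si called 1 gene of this list higher and 3 lower without CoCl2, with a median of -0.41. ASNS, which makes asparagine, stood at -1.84 in Sp1-si against NS-si cells without CoCl2, where SESN2 was at -0.29. Of 10 p53 target genes, CoCl2 called 2 higher in NS-si cells, PLK3 and GDF15 at 1.35 each, with a list median of -0.03 and RRM2B the lowest at -0.50, where SESN1 was at -0.66. In the same list, Sp1-si called 2 higher and 0 lower without CoCl2, TP53INP1 at 1.67 and RRM2B at 1.44, with a list median of 0.06, while SESN1 was at 0.73. The part of HIF, ATF4 or p53 in the values of the 10 genes was not tested.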

How the data were processed

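RNA of the 4 conditions was labelled with Cy3 and hybridised to 4x44K whole human genome arrays by a contract service. The authors deposited the intensities that Agilent Feature Extraction 10.5.1.1 gave, per the file headers, after background subtraction and detrending, and without scaling between arrays. The authors' deposited value table is the same signal times 1 constant per array, and the array annotation is on hg18. Calls of spots well above background, saturated and outlier spots (other columns of the same files) were used as given.

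From these, log2 processed signals minus the 75th percentile of each array were computed without outlier spots, and spots of 1 probe were averaged. A probe counted as well above background where at least 50% of its spots were. Symbols were assigned by RefSeq accession. A gene in a list was represented by its probe of highest mean signal. Ratios are differences between arrays, and a call is a log2 ratio of at least 1 in size. Named are all probes of the 10 genes, at most the 4 largest genes per list past that size in any of the 4 ratios, the 5 nearest genes of DDIT4 and SESN2, and SP1. Further probes of the named pathway genes are given beside them where they were well above background. The members and the lists were chosen with earlier results of these data known.

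The precision is limited by 1 array per condition. Alternatives were quantile normalization, median scaling, a percentile taken only over probes that passed background on every array, no scaling, the authors' value table, outlier spots kept, the mean over a gene's probes, a filter per pair, normexp (offset of 50) and a 1.5-fold threshold. Python 3.11.15, numpy 2.4.6, pandas 2.3.3, matplotlib 3.10.9, R 4.3.3 and limma 3.58.1 were used. Probe sequences and protein sequences were not used here. Some results are withheld and not reported here.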

Additional observations from a re-analysis of the deposited data

Results flagged for a closer look

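At the scaling used, the log2 CoCl2 ratios of 4 probes after NS-si and after Sp1-si had opposite signs, each larger than the SD between spots. The difference between the kinds of cells, Sp1-si minus NS-si, was not tested, since each ratio comes from 1 pair of arrays. It was -0.41 for MTOR, with 0.08 after NS-si and -0.33 after Sp1-si, and 0.18 for RPTOR, with -0.11 and 0.07. It was -0.52 for the RICTOR probe A_32_P15017, with 0.18 and -0.34, and 0.70 for the SESN1 probe A_24_P346339, with -0.64 and 0.06. The 2 SESN1 probes had differences of 0.60 and 0.70, and the 2 RICTOR probes of -0.49 and -0.52, although at the other RICTOR probe (A_32_P193322) both CoCl2 ratios were positive. Leaving out the scaling adds 0.45 to every such difference, which turned that of MTOR to 0.04 and left those of RICTOR at -0.04 and -0.07. Some other scalings brought 1 of the ratios within the SD between spots. For RPTOR after Sp1-si it was 0.015 with quantile normalization and 0.012 with the authors' value table, against an SD of 0.028. For MTOR after NS-si it was 0.004 with the authors' value table, against 0.033. Median scaling kept opposite signs past the SD for both genes.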

How the results depend on the processing

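Of the 5 counts of called genes, 4 moved with the threshold, and that for the difference of the CoCl2 ratios also with the scaling. At a 1.5-fold threshold, CoCl2 called 5 of the 10 genes after NS-si and 2 after Sp1-si, Sp1-si called 3 without CoCl2 and, as at the main threshold, 2 with CoCl2, and the difference called 1, beside 21.9%, 24.5%, 24.9%, 35.3% and 18.1% of all probes, more by construction. Without scaling the difference called 1 gene, SESN1 at 1.05. Of 500 values, which are 50 gene ratios under 10 alternatives, 328 moved by less than the SD between spots and 172 by more, 50 of these without scaling. The 328 include values that could not move. The threshold and the filter per pair leave every ratio as it was, as does the mean over probes for the 8 genes with 1 probe. The share of 328 in 500 is thus not a measure of robustness. None of the 4 called ratios changed sign, and their ranges were 1.31 to 1.59 for DDIT4 with CoCl2 in Sp1-si cells, 2.32 to 2.58 and 2.52 to 3.16 for DDIT4L in Sp1-si cells without and with CoCl2, and 1.29 to 1.72 for SESN1 with CoCl2. Among the others, 15 gene ratios turned sign in 31 values, 14 of them without scaling. The normexp correction was run on median signals, chosen after seeing the data because the files hold no mean signal, and the planned one on mean signals was not run. Arrays could not be left out, with 1 per condition. No paired analysis was possible because each condition has 1 array and no test was run.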
